A study of Mus musculus with 8 samples.

Results

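The receptors that share the common gamma chain were followed in naive CD4 T cells of mice whose Satb1 gene, which encodes a chromatin-organising protein, was targeted for deletion. The set was chosen by name, with earlier results of these data known, and holds 9 of the 53465 genes counted. It comprises the interleukin 2 gene Il2, the 7 receptor chains Il2rg, Il2rb, Il7r, Il4ra, Il21r, Il15ra and Il9r, and the kinase gene Jak3. Of these, 7 had enough reads to be tested, and Il2 and Il9r did not. All mice were Satb1fl/fl and CD4-CreERT2wt/+, that is, they carried floxed Satb1 alleles and 1 copy of a tamoxifen-activated Cre recombinase driven by CD4 sequences. The 4 libraries called KO came from tamoxifen-treated animals and the 4 called WT from untreated animals of that genotype, so the WT cells carried the same alleles and tamoxifen itself cannot be told apart from deletion. The cells, from spleen and lymph node, were sorted as CD3+CD4+CD25- with low or no CD44, among other markers. The labels used here do not state the age of the mice or whether each library is a separate animal. The p-values therefore cover the spread between these libraries, which can be technical.

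Libraries held between 5227758 and 21998174 counted reads, with both extremes among the WT libraries. The 6 T cell genes Cd3d, Cd3e, Cd4, Ccr7, Lef1 and Tcf7 were all tested, and together they came to 3965 to 4306.9 CPM (read counts scaled to library size) in KO and to 4643.9 to 4843.9 CPM in WT. Of these, 3 were lower in KO (Cd4, Ccr7 and Tcf7, with log2 fold changes of -0.19, -0.19 and -0.29) and 0 were higher, which holds for these 6 genes and not for naive cell markers as a set. Their part in the receptor results was not tested. Satb1 itself averaged 910 ± 87.2 CPM in KO against 1032.9 ± 41.4 CPM in WT (SD, n = 4 each). Its libraries overlapped between the groups and the change did not pass the threshold (edgeR adjusted p = 0.0582). The name KO below refers to tamoxifen treatment, not to a measured loss of Satb1.

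Interleukins 2, 4, 7, 9, 15 and 21 signal through receptors that share 1 subunit, the common gamma chain encoded by Il2rg, paired with a chain specific to the cytokine. The gamma chain binds the kinase JAK3, the partner chains mostly bind JAK1, and the kinases activate STAT proteins. In naive T cells interleukin 7 supports survival through the IL-7 receptor, while interleukin 2 is made after activation. The IL-2 receptor beta chain, Il2rb, also serves interleukin 15.

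All of the receptor chains but Il15ra share a hallmark of their extracellular fold, a tryptophan-serine-any-tryptophan-serine run near the membrane. It is shown here because it sets those chains apart by structure. The longest complete coding sequence of each gene in the GENCODE M21 transcripts was read in frame for TGG, a serine codon, any codon, TGG and a serine codon. Of the 7 chains, 6 held the run exactly 1 time and Il15ra did not hold it. Among 21519 protein-coding genes read in the same way, 71 (0.33%) held it. The 15 bases of the run are in capitals, with 12 bases on each side, 5′ to 3′ on the coding strand.
Il2rb, chr15:78485751-78485789, minus strand: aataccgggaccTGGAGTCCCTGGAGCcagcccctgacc
Il2rg, chrX:101266203-101266241, minus strand: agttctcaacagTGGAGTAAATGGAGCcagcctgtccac
Il7r, chr15:9511139-9511177, minus strand: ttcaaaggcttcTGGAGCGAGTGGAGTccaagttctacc
Il4ra, chr7:125571542-125571580, plus strand: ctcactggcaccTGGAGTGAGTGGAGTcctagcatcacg
Il21r, chr7:125628986-125629024, plus strand: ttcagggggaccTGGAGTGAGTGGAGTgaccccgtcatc
Il9r, chr11:32193199-32193237, minus strand: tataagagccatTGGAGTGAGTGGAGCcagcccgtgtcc
The genes lie apart in the genome (GRCm38, the assembly behind mm10). Il7r (chr15:9505788-9530176) and Il2rb (chr15:78479256-78495271) are both on chromosome 15, Il2rg is on X (101264378 to 101268255), Il15ra on 2, Il9r on 11, Jak3 on 8 and Il2 on 3. Il4ra (chr7:125552120-125579474) and Il21r (chr7:125603429-125633570) are direct neighbours on chromosome 7, on the same strand, with 24.0 kb and no annotated gene between them.

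Among the chains, Il2rb, Il7r and Il4ra rose in KO, and Il2rg, Il21r, Il15ra and Jak3 did not pass the threshold in either direction. Thus 3 of 7 tested members were called higher and 0 lower, where 3.98% of all 11772 tested genes were called higher, 2.41% lower and 6.39% in either direction (edgeR quasi-likelihood test, Benjamini-Hochberg adjusted p under 0.05 over all tested genes). The same 3 members had KO libraries that lay wholly above the WT libraries, a separation in this direction that 6.23% of all tested genes showed. The median log2 fold change was 0.13 over the 7 members and 0 over all tested genes. Because the members were chosen with earlier results of these data known, these shares are no independent support.

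**Figure D1:**
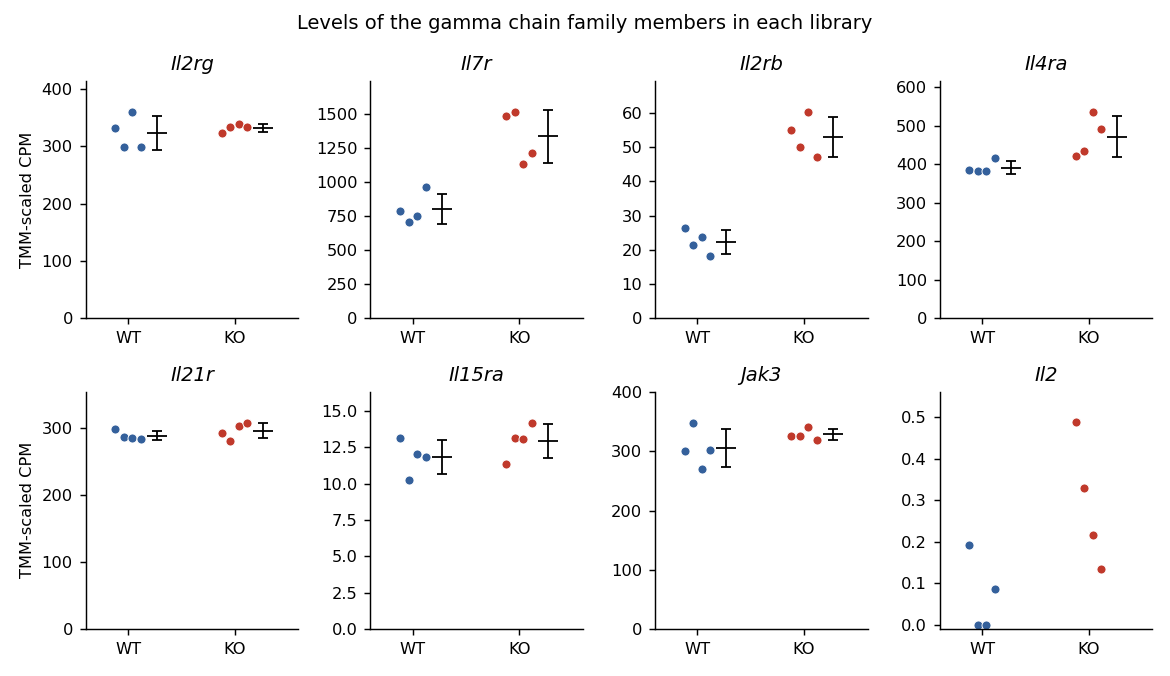
TMM-scaled CPM (vertical axes, from 0) of 8 members in the 4 WT (blue) and 4 KO (red) libraries. Points are libraries, in the order of their sample numbers, and bars are the mean ± SD, left out for Il2, which had at most 4 reads in a library. The Il2rb, Il7r and Il4ra points of KO all lie above those of WT.

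The shared gamma chain was level between the groups. Il2rg stood at 322.4, 333.8, 339.7 and 333.7 CPM in Sample_2907_KO, Sample_2908_KO, Sample_2909_KO and Sample_2910_KO. In Sample_2911_WT, Sample_2913_WT, Sample_2914_WT and Sample_2915_WT it stood at 332.5, 299.2, 359.9 and 298.7 CPM. The WT range enclosed all KO libraries. The log2 fold change was 0.04 with a 95% interval of -0.08 to 0.16 (edgeR adjusted p = 0.788), which covers 0.947 to 1.12 of the WT level. Jak3, whose kinase attaches to the gamma chain, likewise overlapped, with means of 329 ± 9.22 CPM for KO and 305 ± 32.2 CPM for WT (SD, n = 4 each). Its log2 fold change was 0.11 (95% interval -0.01 to 0.24, edgeR adjusted p = 0.358). Jak3 shares 404 exon bases with Insl3 on the same strand. Insl3 was assigned 152 reads in KO and 173 in WT. Il2rg shares 728 exon bases with Gm20489, which was assigned 1 read in each group.

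Il2rb, the signalling chain for interleukins 2 and 15, showed the clearest change. The KO libraries, in the order of sample number, held 54.96, 49.99, 60.3 and 47.01 CPM. The WT libraries held 26.4, 21.4, 23.6 and 18.1 CPM. Every KO library was above every WT library, and the lowest KO value exceeded the highest WT value by a wide margin. The fold change was 2.39 (95% interval 2.05 to 2.78, log2 fold change 1.26, SE 0.107, edgeR adjusted p = 8.38e-10). It rested on 1815 reads in KO and 995 in WT and was called in all 18 alternative settings, at log2 fold changes of 1.16 to 1.45.

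Because Il2rb is also a gene of natural killer, memory and regulatory T cells, their markers stand beside it. Of 8 natural killer markers 4 were tested, 0 were higher and 1, Klrd1, was lower, and their summed level was 59.8 to 66.8 CPM in KO and 67.6 to 79.9 CPM in WT. Ncr1 and Klrb1c, which define that cell type, had under 10 reads over all libraries. Of 8 memory markers 4 were tested, 0 were higher and 1, Cd44, was lower, with a sum of 87.7 to 104 CPM in KO and 97.5 to 108 CPM in WT. The largest part of the natural killer sum was Prf1 (39.5 CPM in KO, 43.9 CPM in WT). For the memory sum it was Itgb1 (59.4 CPM in KO, 54.9 CPM in WT), and the cells were sorted for low or no CD44. Of 8 regulatory T cell markers tested, Foxp3 and Tnfrsf18 were higher and 0 were lower, and the sum was 150 to 232 CPM in KO against 88.2 to 103 CPM in WT. Foxp3 made up most of that gap: the other 7 summed to 91.5 to 119 CPM in KO and to 80.1 to 93.1 CPM in WT, which overlapped. The sum without Foxp3 was formed after seeing the values, so it is descriptive and no independent support. Ikzf2, Ikzf4, Ctla4, Gpr83, Il2ra and Nrp1 did not pass the threshold, among which Nrp1 had a log2 difference of -0.87 (adjusted p = 0.0952 in edgeR). Foxp3, the factor that defines that lineage, stood at 55.1, 93.2, 112.7 and 112.6 CPM in the KO libraries and at 6.92 to 9.76 CPM in WT (log2 fold change 3.45, SE 0.298, edgeR adjusted p = 0.000881). Among the KO libraries Sample_2909_KO was the highest in Il2rb and, nearly level with Sample_2910_KO, in Foxp3. Sample_2910_KO was the lowest KO library in Il2rb, at 47.01 CPM. Sample_2907_KO was the lowest in Foxp3 and the second highest in Il2rb. The part of these cells in the Il2rb result was not tested. In bulk RNA a change in the number of cells of a type and a change in RNA per cell cannot be told apart.

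Il7r, the alpha chain of the IL-7 receptor, rose from the highest starting level of the set. Its level was 1492, 1518, 1132 and 1214 CPM across the KO libraries and 786.9, 710.6, 752.0 and 964.6 CPM across WT. The groups did not overlap, but each was uneven: Sample_2907_KO and Sample_2908_KO were well above the other KO libraries, and Sample_2915_WT was above the other WT libraries. The fold change was 1.67 (95% interval 1.33 to 2.09, log2 fold change 0.74, SE 0.138, edgeR adjusted p = 0.0245). The call held in 13 of 18 alternative settings. It was lost without Sample_2907_KO, Sample_2908_KO, Sample_2911_WT or Sample_2914_WT (log2 fold change 0.67 to 0.72, edgeR adjusted p 0.0556 to 0.0837) and without the last pair together (0.67, edgeR adjusted p = 0.206).

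Il4ra, the IL-4 and IL-13 receptor alpha chain, rose by less. Its KO libraries read 421.3, 435.1, 535.4 and 492.1 CPM, and its WT libraries 385.2, 381.9, 381.4 and 416.1 CPM. The lowest KO library was just above the highest WT library. The fold change was 1.2 (95% interval 1.10 to 1.32, log2 fold change 0.27, SE 0.0641, edgeR adjusted p = 0.00846). The call was lost without Sample_2911_WT and Sample_2914_WT together (log2 fold change 0.24, edgeR adjusted p = 0.131). Within KO, Sample_2909_KO and Sample_2910_KO were the lowest KO libraries in Il7r and the highest in Il4ra.

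Il21r, the IL-21 receptor and the genomic neighbour of Il4ra, overlapped between the groups. Values were 293.6, 281.4, 302.8 and 308.4 CPM in KO, and 299, 286.7, 286.1 and 283.9 CPM for WT. The log2 difference of 0.04 had a 95% interval of -0.07 to 0.15 (edgeR adjusted p = 0.779). B cells and myeloid cells also express the last pair of chains. The 5 B cell markers used summed to 3.35 to 5.62 CPM in KO and 2.76 to 4.33 CPM in WT (0 of 2 tested called, and Ms4a1 and Pax5 under 10 reads). Myeloid markers summed to 8.57 to 16.2 and 2.16 to 29.9 CPM (0 of 2 tested called), highest in Sample_2911_WT, and CD8 markers to 9.65 to 14.7 and 13.2 to 18.2 CPM (0 of 1 called). Their part in the Il4ra result was not tested.

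Il15ra, the high-affinity chain that binds and presents interleukin 15, was scarce, with means of 12.9 ± 1.18 CPM for KO and 11.8 ± 1.17 CPM for WT (SD, n = 4 each). Its log2 fold change of 0.13 had a wider interval, -0.17 to 0.42, or 0.891 to 1.34 of the WT level (edgeR adjusted p = 0.715), on 440 reads in KO and 532 in WT.

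Of the cytokine and the receptor with too few reads, Il2, the growth factor of activated T cells, had 4, 3, 2 and 1 reads in the KO libraries and 1, 0, 0 and 1 in the WT libraries. Pooled, KO had 0.294 CPM and WT 0.0447 CPM, where 3 reads would stand for 0.0882 and 0.0671 CPM. All KO libraries had a read, but Sample_2911_WT, at 0.193 CPM, lay above Sample_2910_KO, at 0.134 CPM. The pooled ratio of 6.57 had an exact 95% counting interval of 1.40 to 61.7. A 2-sided exact permutation test over the 70 relabellings of CPM gave p = 0.0571, where the smallest p possible is 0.0286. The ratio was 3.27 without Sample_2914_WT and 11.6 without Sample_2911_WT. The size of the Il2 difference was therefore not determinable at this depth. Il9r, the IL-9 receptor, had 0 reads in KO, which allows up to 0.0882 CPM, and 1, 0, 2 and 1 reads in WT (exact permutation p = 0.143, 2-sided).

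Divided by the length of the merged exons, the levels can be ordered between genes. In WT the order was Il7r (172 ± 24.0 CPM per kb), Il2rg (135 ± 12.3), Il21r (86.9 ± 2.04), Il4ra (65.2 ± 2.78), Jak3 (57.1 ± 6.01), Il2rb (5.23 ± 0.823) and Il15ra (2.66 ± 0.264), as mean ± SD over 4 libraries. Neighbours in that order did not overlap in their libraries, except Il4ra with Jak3. In KO the order was the same, with Il7r at 287 ± 41.8, Il4ra at 78.5 ± 8.79 and Il2rb at 12.4 ± 1.36 CPM per kb. There the neighbours that overlapped were Il21r and Il4ra. Apart from Il9r, Il2rb was the scarcest of the chains that pair with the gamma chain in both groups. The length uses all annotated exons, so a gene transcribed from few of them is placed too low.

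**Figure D2:**
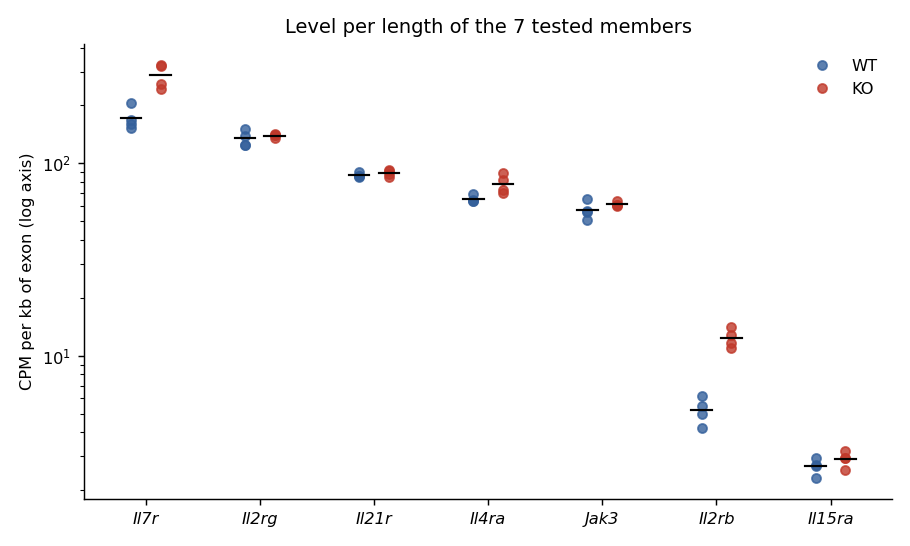
CPM per kb of merged exon on a log axis for the 7 tested members, ordered by their WT mean, with WT libraries in blue and KO libraries in red and the group mean as a black line. Il2rb moves from 5.23 in WT to 12.4 in KO, and the order of the genes is the same in both groups.

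Ratios between members within a library do not depend on the scaling between libraries, and 3 were compared. These 3 were chosen after seeing the values, so their p-values are descriptive and no independent support. The Il2rb to Il2rg ratio per kb was 0.0949, 0.0834, 0.0989 and 0.0784 in KO and 0.0443, 0.0399, 0.0365 and 0.0337 in WT. The groups were apart (2-sided exact permutation p = 0.0286, the smallest possible, adjusted p = 0.0429 over the 3 ratios), and leaving out any 1 library gave a log2 difference of 1.14 to 1.27. The Il7r to Il2rg ratio was 2.37, 2.33, 1.71 and 1.86 in KO and 1.21, 1.22, 1.07 and 1.65 in WT (exact permutation p = 0.0286, adjusted p = 0.0429). Leaving out any 1 library kept the groups apart, with log2 differences of 0.60 to 0.81. Without any 1 KO library or Sample_2914_WT the exact permutation p was 0.0571. With so few relabellings p moves in coarse steps, so this cannot show that the ratio depends on those libraries. Il4ra per Il21r, the adjacent pair, was 0.878 ± 0.0767 in KO and 0.75 ± 0.0425 in WT (SD, n = 4 each) with overlapping libraries (exact permutation p = 0.0571, adjusted p = 0.0571). A difference between the changes of these neighbours was thus not shown.

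**Figure D3:**
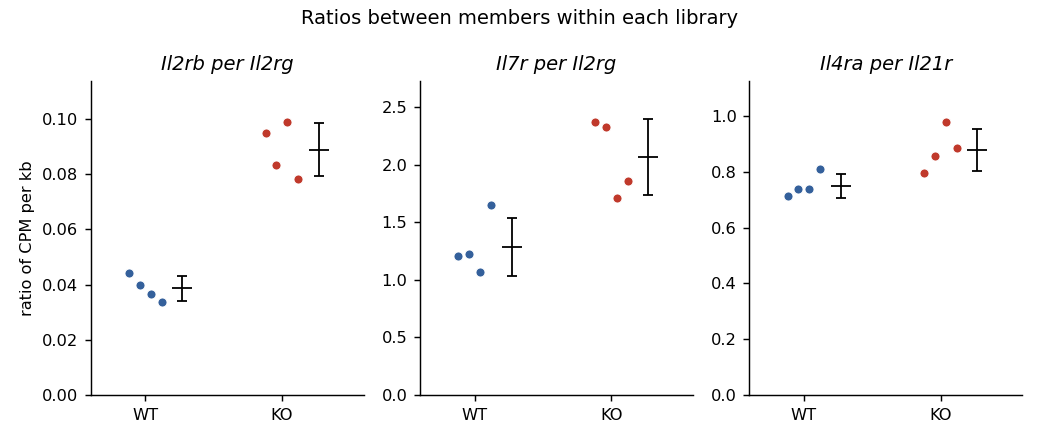
Ratio of CPM per kb (vertical axes, from 0) between pairs of members within each WT (blue) and KO (red) library, with the mean ± SD as bars. KO libraries lie above WT libraries for Il2rb per Il2rg and Il7r per Il2rg, while for Il4ra per Il21r the highest WT library, 0.812, exceeds the lowest KO library, 0.795.

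The chains that pair with the gamma chain were then summed per kb (Il2rb, Il7r, Il4ra, Il21r and Il9r). The sum was 3.64, 3.54, 3.07 and 3.19 times the Il2rg level in the KO libraries and 2.36, 2.45, 2.10 and 2.92 times in the WT libraries. Every KO library was above every WT library in this RNA ratio, with the lowest KO value at 3.07 and the highest WT value at 2.92. The sum was not planned and was not tested. Because Il7r made up the largest part of it, it is not independent of the Il7r to Il2rg ratio. Il7r made up 61.2% ± 5.07 of the sum in KO and 52.1% ± 3.06 in WT, Il2rb 2.66% ± 0.386 and 1.6% ± 0.314, and Il4ra 16.9% ± 2.96 and 19.8% ± 0.755 (SD, n = 4 each). Il21r made up 19.2% ± 1.92 in KO and 26.5% ± 2.13 in WT although its own level overlapped between groups.

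Other genes of the pathway were taken from 8 lists of 56 genes, which were drawn up with earlier results of these libraries known and are no independent support. Of the 46 tested, 8 were higher and 1 lower in KO, or 19.6% called, beside 6.39% of all tested genes. Their median log2 fold change was 0.10. None of the 6 other ligands could be tested. Il7, Il9 and Tslp had 0 reads in every library, which allows up to 0.0882 CPM in KO and 0.0671 CPM in WT. Il15 had 2 reads in KO and 0 in WT, Il4 had 6 and 8, and Il21, the helper cell cytokine read by Il21r, had 7 and 8.

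Of the partner chains, 0 of 2 tested passed. Il2ra, the IL-2 receptor alpha chain, encodes CD25, against which the cells were sorted. KO libraries averaged 5.31 ± 0.927 CPM and WT libraries 4.01 ± 0.706 CPM (SD, n = 4 each), a log2 fold change of 0.41 with a 95% interval of -0.08 to 0.90 (edgeR adjusted p = 0.392). Crlf2, which pairs with Il7r in the receptor for thymic stromal lymphopoietin, was at 31.9 ± 4.65 and 32.8 ± 2.88 CPM (SD, n = 4 each).

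Of 6 kinases and STATs, Stat3 and Stat6 rose and 0 fell. Stat6, the main relay of Il4ra, stood between 352.6 and 395.2 CPM across KO and between 313.9 and 335.4 CPM across WT (log2 fold change 0.21, edgeR adjusted p = 0.0152). Stat3, a relay of Il21r, stood at 396.1 to 427.1 and 316 to 381.7 CPM (0.19, edgeR adjusted p = 0.038). The Stat6 call was lost without Sample_2907_KO, Sample_2913_WT or Sample_2915_WT (edgeR adjusted p up to 0.0779). The Stat3 call was lost in 8 of 18 alternatives (up to 0.401), among them without Sample_2907_KO, Sample_2910_KO, Sample_2911_WT, Sample_2913_WT or Sample_2914_WT. Stat5a and Stat5b, the relays of interleukins 2 and 7, had log2 fold changes of -0.04 and -0.02, and Jak1, the partner kinase of Jak3, -0.02. Of 7 tested adaptor and PI3K genes 0 passed. Pik3r1 came closest (log2 fold change 0.18, edgeR adjusted p = 0.0532).

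Of 6 tested feedback inhibitors 1 rose. Cish, a STAT5-induced inhibitor, measured 44.7, 31.46, 47.98 and 40.98 CPM in KO, and 14.67, 11.9, 18.01 and 13.94 CPM in WT. The groups were far apart, with a fold change of 2.73 (log2 fold change 1.45, SE 0.133, edgeR adjusted p = 4.25e-08). Its relative Socs2 was below the filter, with 6, 1, 8 and 5 reads in the KO libraries and 1, 0, 1 and 0 in the WT libraries. The pooled Socs2 ratio was 13.1 (exact 95% counting interval 3.19 to 116), and the 2-sided exact permutation test on CPM gave p = 0.0571. For Socs1 the log2 fold change was 0.50 (edgeR adjusted p = 0.202), and for Socs3 it was 0.02 (0.970).

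Of 10 target genes 2 rose and 0 fell. Ccnd2, which encodes the cell cycle regulator cyclin D2, ranged from 805.5 to 941.3 CPM in KO and from 536.6 to 615.5 CPM in WT (log2 fold change 0.58, SE 0.0568, edgeR adjusted p = 1.58e-08). Bcl2, the survival gene that interleukin 7 sustains, was at 391.3 to 472.1 and 288.7 to 342 CPM (0.44, edgeR adjusted p = 1.08e-05). Both were called in all 18 alternatives, as Cish was. Among those that did not pass, the log2 fold change was 0.36 for Pim1 (edgeR adjusted p = 0.202), 0.12 for Mcl1 (0.290) and -0.15 for Myc (0.296).

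Among transcription factors known to act on Il7r or Il2rb, 1 of 6 tested rose. Runx3 averaged 122 ± 12.9 CPM in KO against 91.8 ± 9.90 CPM for WT (SD, n = 4 each; log2 fold change 0.41, edgeR adjusted p = 0.00231). Foxo1, an activator of Il7r, had a log2 fold change of -0.02, Ets1 one of -0.10 and Eomes one of 0.26, and none of these passed. The gene of T-bet, Tbx21, drew 10 KO reads and 14 WT reads. Of 9 regulators of Il2, Ikzf3 (log2 fold change 0.25, edgeR adjusted p = 0.00789) and Crem (0.63, edgeR adjusted p = 0.0110) rose, and Ikzf1, which encodes Ikaros, fell (-0.21, edgeR adjusted p = 0.00892). Ikzf1 ranged from 890 to 951.3 CPM in KO and from 1006 to 1086 CPM in WT. Nfatc1, Nfatc2 and Rel had log2 fold changes between -0.03 and 0.08 and did not pass. Without Sample_2911_WT and Sample_2914_WT together Runx3, Ikzf1, Ikzf3 and Crem all lost their calls (edgeR adjusted p 0.0641 to 0.115). Crem also lost its call without Sample_2907_KO or Sample_2914_WT, and Ikzf3 without Sample_2910_KO or Sample_2915_WT.

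**Figure D4:**
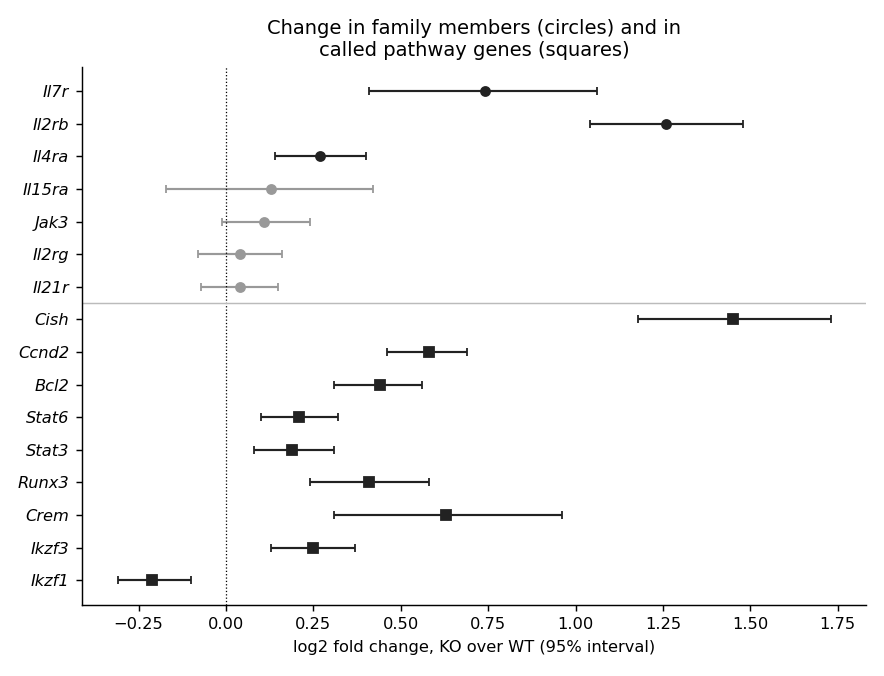
Log2 fold change of KO over WT (horizontal axis) with its 95% interval, for the 7 tested members (circles, above the line) and the 9 called pathway genes (squares). Black marks genes past the threshold and grey those that did not pass. Cish (1.45) and Il2rb (1.26) lie farthest from 0.

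Promoter sequence was in the RefSeq table (GRCm38.p6) for 8 of the 9 members, not including Il2rb. It is shown for Il7r and Il4ra, the other members that rose, with bases inside an annotated UTR left out. The 250 bases before each start were searched on both strands for the STAT motif TTCNNNGAA, the STAT6 form of it with 1 base more between the arms, and the FOXO motif GTAAACA, which were held by 7.02%, 5.85% and 3.17% of 32851 windows of that length. The search covered the whole window, also where fewer bases are printed, as for Il4ra with 99. Capitals mark matches.
Il7r, chr15:9529877-9530126, minus strand: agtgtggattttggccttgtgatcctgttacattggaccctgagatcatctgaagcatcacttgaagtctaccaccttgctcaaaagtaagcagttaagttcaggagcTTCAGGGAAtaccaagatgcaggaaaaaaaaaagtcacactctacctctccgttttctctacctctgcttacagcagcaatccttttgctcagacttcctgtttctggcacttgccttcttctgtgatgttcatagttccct
Il4ra, chr7:125552021-125552119, plus strand: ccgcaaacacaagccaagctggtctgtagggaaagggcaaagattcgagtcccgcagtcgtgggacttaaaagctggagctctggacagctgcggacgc
The Il7r window held 1 match to TTCNNNGAA, and the Il4ra window held none of the 3 motifs. The Il7r window precedes the start in the RefSeq table but lies wholly inside the GENCODE span of Il7r. On the minus strand that span begins at base 9530176, so the match is not upstream of the GENCODE start. Of the other windows, that of Il21r held 1 match to GTAAACA on the minus strand, and those of Il2, Il2rg, Il15ra, Il9r and Jak3 held none. A match is a description of letters and not of a bound site.

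Candidates for likeness were 8190 other tested genes whose mean was 10 CPM or more, without clone-like symbols and antigen receptor or immunoglobulin segments. Among them, genes with the pattern most like Il2rb and Il7r were ranked by Pearson r of log2 CPM over the 8 libraries. For Il2rb these were Zcchc2 (r = 0.991), Prr13 (0.985), Znfx1 (0.983), Lrp10 (0.980) and Map2k3 (0.979). For Il7r they included Yars (0.995), Klf6 (0.974), Zfp120 (0.972) and Znrf2 (0.968). These r describe 8 libraries that share the split into KO and WT. The top matches differed in size of change: Prr13 had a log2 fold change of 1.51, Zcchc2 0.40 and Yars 0.15. Yars (edgeR adjusted p = 0.328) and Map2k3 (edgeR adjusted p = 0.0947) did not pass the threshold.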

How the data were processed

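Poly(A) RNA was sequenced as single reads from TruSeq libraries, per the labels' protocols. The submitters' processing notes name build mm10 and, with no role, DESeq2 1.22.2, R 3.5.3, CASAVA 1.8.2 and FastQC; the aligner, counter and annotation were not given in the sources used here. The deposited count table holds read counts for 53465 gene IDs. The deposited signal table holds 16418 genes, those with at least 10 reads, as counts divided by 1 factor per sample. GENCODE M21 gave symbols and exon lengths for 99.8% of IDs.

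The test on counts was that of edgeR 4.0.16 (under R 4.3.3; robust quasi-likelihood, TMM, filterByExpr, 11772 genes tested), called at an adjusted p under 0.05. Levels are CPM on TMM-scaled libraries, SE is the size of the log2 fold change divided by root F, and n is 4 libraries per group. For untested genes, reads were pooled with exact 95% intervals that cover counting error only. The fit was tested on simulated counts. Replicates differed beyond sampling noise (chi-square per gene 2.61 to 10.4). Alternatives were DESeq2 1.42.0, limma 3.58.1 (voom with sample weights, and trend on log2 of the deposited signal plus 1), RLE or library-size scaling, no count filter, 1 CPM in 4 samples, a non-robust fit, thinning to 5227758 reads, and leaving out libraries. Genes named were all members, called pathway genes, up to 4 others per list, and the 5 most alike to Il2rb and Il7r; a few genes of the marker lists and of these matches are not reported here. The members and lists were chosen with earlier results of these data known. The 3 ratios and the regulatory T cell marker sum without Foxp3 were chosen after seeing the values. The sum of partner chains over Il2rg was not planned.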

Additional observations from a re-analysis of the deposited data

Results flagged for a closer look

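In WT, Il4ra in Sample_2915_WT stood apart at 416.1 CPM, where the other WT libraries held 381.4 to 385.2 CPM. The gap was 0.89 of the group's range, above Dixon's 95% critical value for 4 values. This was 1 flag among 34 groups of 4 examined (17 genes), and chance flags about 1 in 20 groups. Without Sample_2915_WT the Il4ra log2 fold change was 0.30 (edgeR adjusted p = 0.00895). The same library was the highest WT library in Il7r, at 964.6 CPM, and the lowest in Il2rb, at 18.1 CPM.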

How the results depend on the processing

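With Sample_2911_WT and Sample_2914_WT both left out, 481 genes changed in place of 752, 1 changed member (Il2rb) in place of 3, and 4 changed pathway genes in place of 9; the cause was not tested, although fewer samples were fitted. In the other 17 alternatives these counts stayed within 1.5 times. Leaving out 1 library gave 562 to 836 changed genes, 2 or 3 changed members and 6 to 12 changed pathway genes. The pooled Il2 ratio ranged from 3.27 to 11.6 when 1 library was left out, was 6.0 after thinning and was 4.18 on the deposited normalized values (exact permutation p = 0.0571). No tested member changed direction in any alternative. The Il4ra to Il21r ratio passed without Sample_2907_KO (exact permutation p = 0.0286). No paired analysis was possible because sample numbers are not shared between the groups. Depth limits Il2, Il9r and Socs2, which had at most 8 reads in a library.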
